A study of Homo sapiens with 4 samples.

Results

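The 6 EMT transcription factors SNAI1, SNAI2, ZEB1, ZEB2, TWIST1 and TWIST2 were taken from the count tables by gene name. This rule uses no measured value, but the factors were chosen with earlier results of these data known. They are 6 of the 19577 gene rows found in at least 1 of 4 plates of single MCF10A cells. MCF10A is an untransformed human mammary epithelial cell line, and the subline used here carries GFP on histone H2B (MCF10A_H2B_GFP). All 4 samples were treated alike until phototagging: a circular patch was seeded with 10000 cells on fibronectin-coated glass and grown for 6 days in MCF10A medium, which contains donor equine serum, penicillin/streptomycin, EGF, hydrocortisone, cholera toxin and insulin. Concentric regions of the patch were then marked with photoactivatable Janelia Fluor dyes, in bands of 1000 to 1500 µm (low resolution, 2 plates) or of 250 µm (high resolution, 2 plates), and live cells were sorted into 384-well plates. Wells were not assigned to regions here, so each value below describes the cells of a whole plate, and a difference between the 2 experiments cannot be told apart from a difference in sorting or culture between them. The plate was the replicate (n = 2 for each experiment), the study calls the replicates biological, and all values come from 1 cell line.

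EMT (epithelial-to-mesenchymal transition) is the loss of cell junctions and the gain of a migratory state, and these 6 genes are its best known inducers. SNAI1 (Snail) and SNAI2 (Slug) are zinc-finger repressors, ZEB1 and ZEB2 are larger repressors with a pair of zinc-finger clusters, and both families bind the E-box CACCTG in promoters of epithelial genes such as CDH1. TWIST1 and TWIST2 are basic helix-loop-helix factors that act as dimers with E proteins. SNAI2 is also known from the basal layer of the normal mammary gland, where it is expressed without a full transition. CDH1 (E-cadherin) and EPCAM, adhesion molecules of epithelial cells, and VIM (vimentin) and FN1 (fibronectin), a filament and a matrix protein of mesenchymal cells, were used as markers of the axis.

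On GRCh38.p14, SNAI1 lies at chr20:49982980-49988886, ZEB1 at chr10:31318417-31529804, ZEB2 at chr2:144384081-144520119, TWIST1 at chr7:19113047-19117636 and TWIST2 at chr2:238848085-238910534, and the count tables gave the same chromosomes. RefSeq promoter windows (250 bases before to 50 bases after a start) were searched for CACCTG and CAGGTG, which are the same E-box read on either strand. Of 35116 windows in the RefSeq table, 20.6% held at least 1 match. The table gave windows for ZEB1, ZEB2 and TWIST2 among the members and for VIM and FN1 among the markers. Of the 7 windows of ZEB1, 2 held the E-box, and the single windows of ZEB2, TWIST2, VIM and FN1 held none. Of 12 other genes known as targets that these factors repress, 10 had windows and 8 of those had the E-box in at least 1 of them. Counted by window, as for the whole table, 10 of the 14 windows of these genes (71.4%) held it. Such genes are in part known as targets because of their E-boxes, so this count is not independent of the list. The sequences below show bases before the first start of ZEB1, where 1 E-box lies, and of TWIST2, where none does, beside those of 2 repressed targets with a match outside annotated exons, MUC1 and PATJ. Each begins 250 bases before the start and ends before the first annotated exon base on its strand, so 197 bases are shown for TWIST2, 249 for MUC1 and 176 for PATJ, whose window of 300 bases holds 3 E-boxes, 1 of them in the stretch shown. Each runs 5′ to 3′ on the strand of its gene, with E-boxes in capitals, and a match is a description of the letters and not evidence of binding.
ZEB1, chr10:31318167-31318416, plus strand: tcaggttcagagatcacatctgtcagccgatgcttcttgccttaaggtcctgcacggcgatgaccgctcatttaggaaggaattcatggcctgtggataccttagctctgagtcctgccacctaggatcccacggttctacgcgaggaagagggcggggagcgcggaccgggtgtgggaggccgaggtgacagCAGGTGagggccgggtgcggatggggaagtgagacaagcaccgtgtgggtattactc
TWIST2, chr2:238847835-238848031, plus strand: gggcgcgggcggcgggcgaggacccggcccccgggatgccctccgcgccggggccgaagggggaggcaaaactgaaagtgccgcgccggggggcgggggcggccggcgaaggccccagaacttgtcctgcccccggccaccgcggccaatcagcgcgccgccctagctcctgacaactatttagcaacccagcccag
MUC1, chr1:155192917-155193165, minus strand: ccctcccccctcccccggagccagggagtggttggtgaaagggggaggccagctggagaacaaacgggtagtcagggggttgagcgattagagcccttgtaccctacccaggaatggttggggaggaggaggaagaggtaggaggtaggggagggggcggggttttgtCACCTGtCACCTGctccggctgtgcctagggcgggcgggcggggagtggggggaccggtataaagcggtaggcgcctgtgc
PATJ, chr1:61742230-61742405, plus strand: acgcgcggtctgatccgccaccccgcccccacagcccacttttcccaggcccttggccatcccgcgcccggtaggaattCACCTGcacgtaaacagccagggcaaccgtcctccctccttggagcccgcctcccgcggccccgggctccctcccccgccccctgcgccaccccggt

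The plates held between 11709628 and 14992348 transcripts, and 1146 of 1536 wells passed the limits of 2000 to 9000 features and under 40% mitochondrial counts (291 and 271 cells at low resolution, 291 and 293 at high resolution). The median cell had 29185 and 32135 UMIs (unique molecular identifiers, 1 for each transcript caught) at low and 34058 and 39240 at high resolution, so high resolution cells were deeper. The shares of cells with each factor are therefore also given with each cell thinned to 10000 UMIs, for which 1130 cells were deep enough. The 384 barcodes are the same wells in each plate and mark different cells. All 10 breast epithelial markers (keratins, integrins and others) had a UMI in at least 20% of the cells of each plate, while LUM, CLDN5 and MS4A1, from the lists for fibroblasts, endothelium and immune cells, had no UMI in any plate. Other genes of these lists were detected: of 7 fibroblast markers, 4 to 6 had a UMI in a plate, with COL1A1 in 17.3% to 27.6% of cells, and the immune marker CD14 was found in 36.9% to 59.8% and the endothelial marker PECAM1 in 28.5% to 47.1% of cells.

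All 6 factors were detected in each plate, at levels that differed widely between genes. A level is given as transcripts per 10000 transcripts of the plate's kept cells, where transcripts are the deposited counts, that is UMIs corrected for those drawn more than once. Counts of UMIs are whole UMIs before that correction. Because each transcript is counted once, at its 3′ end, no division by length was made. SNAI2 (chr8:48917598-48921429 on the same build) had the highest level, with 0.839 and 0.855 transcripts per 10000 at low resolution and 2.02 and 2.23 at high resolution, which did not overlap. TWIST1 stood at 0.567 and 0.364 at low resolution and at 0.249 and 0.396 at high resolution, where the groups overlap. TWIST2 stood at 0.188 in either low resolution plate and at 0.311 and 0.29999 for high resolution, which again did not overlap.

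The ZEB genes were found at a lower level. ZEB2 had 0.108 and 0.0654 transcripts per 10000 at low resolution and 0.0761 and 0.0805 at high resolution. ZEB1 had 0.0697 and 0.0505 at low resolution and 0.0849 and 0.0561 at high resolution. SNAI1 was the rarest, with 0.00505 and 0.0416 at low resolution and 0.0201 and 0.0362 at high resolution, from 5, 42, 23 and 49 UMIs. Ordered by mean level over the 4 plates, the genes ran SNAI2, TWIST1, TWIST2, ZEB2, ZEB1 and SNAI1. The ranges of TWIST1 and TWIST2 overlap, as do those of ZEB2 and ZEB1, so the order within these neighbouring genes does not hold beyond the spread of the plates. The ranges of SNAI2 and TWIST1, of TWIST2 and ZEB2, and of ZEB1 and SNAI1 do not overlap.

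**Figure D1:**
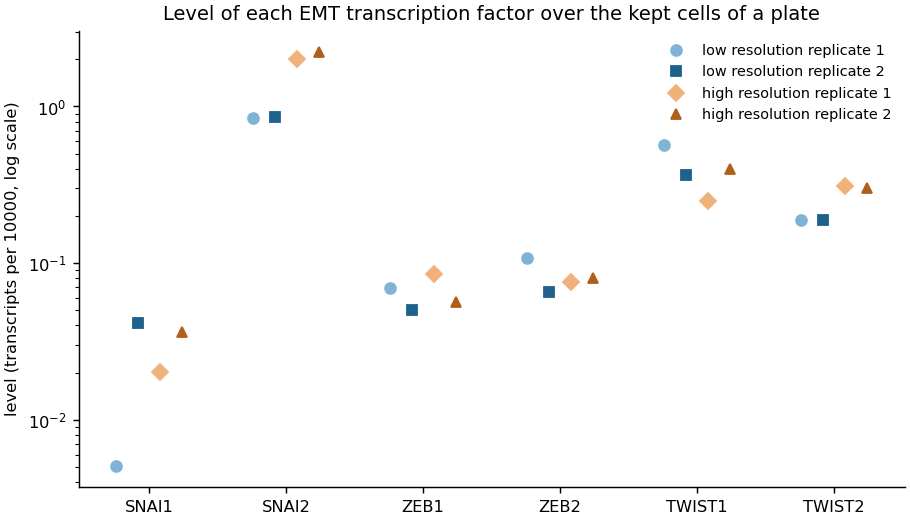
Level of each EMT transcription factor (transcripts per 10000 transcripts over the kept cells of a plate, log scale), 1 point per plate. The high resolution plates lie above the low resolution plates for SNAI2 and TWIST2 alone, and SNAI1 differs most between plates of 1 group (0.00505 and 0.0416 at low resolution).

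In most cells at least 1 of the factors was seen, and shares differed widely between the genes. SNAI2 had a UMI in 64.6% and 64.2% of low resolution cells and in 85.9% and 87.4% of high resolution cells. TWIST1 had one in 65.3%, 60.1%, 55.3% and 67.2% of the cells of the 4 plates in the same order, and TWIST2 in 35.7%, 39.1%, 54.6% and 61.1%. ZEB2 was found in 24.4%, 16.2%, 21.3% and 24.2% of cells and ZEB1 in 15.5%, 11.1%, 21.6% and 19.1%. SNAI1 was found in 1.37% of the cells of low resolution replicate 1 (exact binomial 95% interval 0.376% to 3.48%) and in 9.23%, 4.81% and 11.6% of the others. All intervals here cover counting error only.

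At 10000 UMIs per cell, SNAI2 was left in 42.5% and 42.2% of low resolution cells and in 66.2% and 68.7% of high resolution cells, so its groups stayed apart. TWIST2 also stayed apart, at 17.4% and 15.7% against 27.8% and 24.4%, but at 5000 UMIs its groups overlapped (7.56% and 12.2% against 14.1% and 10.9%). ZEB1 had 5.23% and 5.597% against 10.6% and 8.25%, groups that did not overlap in this share. Its level at this depth did not overlap either (0.0627 and 0.0634 against 0.130 and 0.0893 UMIs per 10000), while its level at full depth did. The exact intervals of the plates nearest to each other, 3.17% to 9.06% and 5.36% to 12.02%, do overlap, and at 5000 UMIs the groups overlapped (4.81% and 2.21% against 5.84% and 4.10%). TWIST1 was left in 35.9% and 30.6% of low resolution and in 25.7% and 28.9% of high resolution cells, groups that did not overlap in this share. The share was higher at low resolution, at 5000 UMIs as well (27.1% and 17.7% against 9.97% and 15.7%). In UMIs per 10000 at a depth of 10000, the groups overlapped (0.599 and 0.418 against 0.327 and 0.471). The exact intervals of the nearest plates at 10000 UMIs, 25.1% to 36.5% and 23.7% to 34.4%, do overlap. ZEB2 fell to 12.2%, 6.72%, 7.75% and 7.56%, and SNAI1 to between 1.05% and 2.41%, that is 3 to 7 cells of a plate. No plate had a cell type that should lack these genes, so no background share could be measured within a plate. In the 222 wells under 2000 features, the number of UMIs per 10000 UMIs of SNAI2, ZEB2 and TWIST1 was below that of kept cells in all 4 plates, and that of ZEB1 and TWIST2 in 3 of 4. For ZEB2 in high resolution replicate 2 this rests on 1 UMI (0.0841 against 0.0851). SNAI1 had 0 UMIs in these wells, but it is too rare for this to be read as lower.

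**Figure D2:**
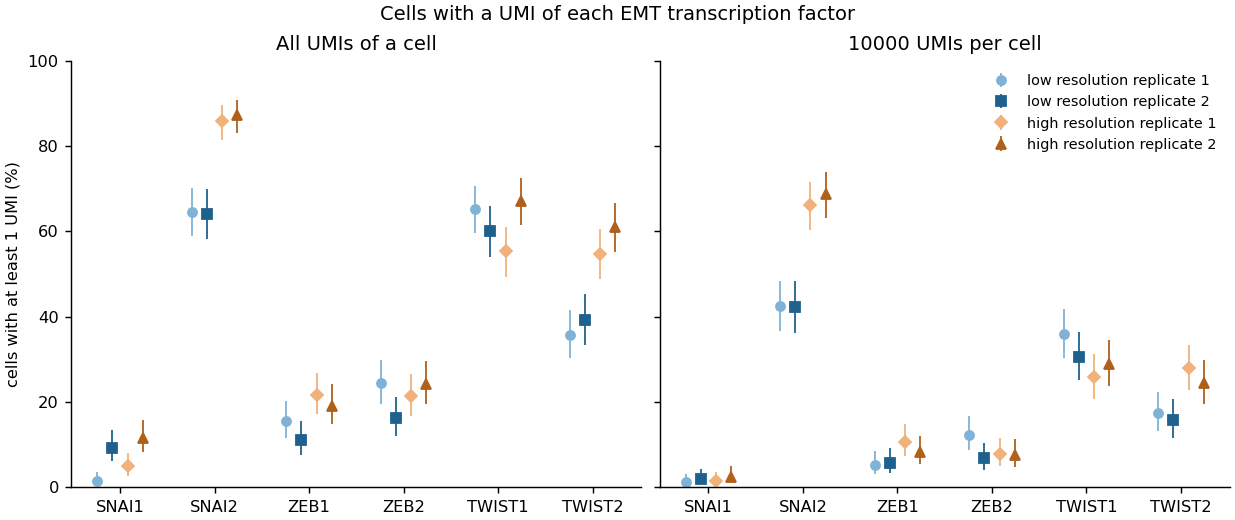
Share of kept cells with at least 1 UMI of each factor (%), on the left with all UMIs and on the right with 10000 UMIs per cell; bars are exact binomial 95% intervals and cover counting error only. The shares fall at equal depth for each gene, and the high resolution plates stay above the low resolution plates for SNAI2 (66.2% and 68.7% against 42.5% and 42.2%).

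A cell with SNAI2 often carried many copies, while ZEB1 and ZEB2 were mostly seen as single UMIs. Cells with a SNAI2 UMI held a mean of 4.41 and 4.95 at low resolution and of 9.21 and 11.8 at high resolution, and the highest cell held 78. TWIST1 had means of 1.77 to 2.95 and TWIST2 of 1.79 to 2.27. Of the cells with a ZEB1 UMI, 62.2% to 73.2% held exactly 1, and of those with a ZEB2 UMI, 61.4% to 75.8%. These genes are therefore near the limit of detection in a single cell, and a cell without a ZEB1 or ZEB2 UMI cannot be called negative. Other relatives added little: SNAI3, the third Snail gene, had 1 UMI over all kept cells. ZEB1-AS1, which is transcribed from the other strand at the ZEB1 promoter, had a row of its own with a UMI in 5.54% to 14.3% of cells. Whether the counting used strand is not given in the sources used here, and if it did not, reads of ZEB1 and ZEB1-AS1 cannot be told apart where they overlap.

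The first comparison asked whether the factors differ between the 2 phototagging experiments. SNAI2 was 1.36 higher on the log2 scale at high resolution (SE 0.113, n = 2 plates against 2, edgeR quasi-likelihood test with Benjamini-Hochberg adjustment, adjusted p = 9.96e-05), and TWIST2 was 0.73 higher (SE 0.144, adjusted p = 0.00687). Of 12437 genes tested, 6.26% were called higher and 6.18% lower at an adjusted p under 0.05. All 6 factors were tested and 2 of them were called higher, in DESeq2 as in edgeR. The markers VIM (0.94 higher, adjusted p = 0.00117) and FN1 (0.77, adjusted p = 0.00127) also rose and CDH1 fell by 0.68 (adjusted p = 0.00321), while EPCAM differed by -0.11 (SE 0.115, adjusted p = 0.566). Of the 10 breast epithelial markers, 4 were called higher and 0 lower by edgeR. Among listed markers of other cell types, CD14 (-0.96, adjusted p = 0.0070) and KDR (-1.03, adjusted p = 0.0431) were lower and PECAM1 (0.55, adjusted p = 0.0447) was higher.

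The other 4 factors were not called by edgeR. TWIST1 differed by -0.48 (SE 0.212, adjusted p = 0.158), ZEB1 by 0.26 (SE 0.263, adjusted p = 0.567), ZEB2 by -0.11 (SE 0.238, adjusted p = 0.815) and SNAI1 by 0.30 (SE 0.597, adjusted p = 0.787). The results of TWIST1 and SNAI1 changed with some settings. TWIST1 was called lower at high resolution in 3 of 12 alternative settings. Among these were the fit without the filter on low counts (-0.47, adjusted p = 0.0207 by edgeR) and that with the replicate number as block. With 1 plate left out, which leaves 1 plate in its group, TWIST1 ranged from -0.84 (without high resolution replicate 2) to -0.17. SNAI1 was 2.55 higher without low resolution replicate 2, whereas without low resolution replicate 1 it was at -0.54. The deposited names place low resolution replicate 1 on a flow cell of its own. On the flow cell of the other 3 plates, that is without it, SNAI2 was 1.31 higher and TWIST2 0.70 higher. This leaves 1 low resolution plate, and the part of the flow cell was not tested.

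SNAI2 was higher at high resolution at both ends of the marker axis. Cells of each plate were ranked by a score, the mean of the z-scores of VIM and FN1 minus those of CDH1 and EPCAM, and divided into terciles of 90 to 97 cells. In the lower tercile, where CDH1 and EPCAM were high, SNAI2 stood at 0.304 and 0.271 transcripts per 10000 at low and at 0.710 and 0.958 at high resolution. In the upper tercile it stood at 1.55 and 1.74 against 3.33 and 3.64. When the experiments were compared within a tercile by edgeR, the difference in SNAI2 was 1.57 (SE 0.180, adjusted p = 0.00103) in the lower and 1.10 (SE 0.132, adjusted p = 0.000501) in the upper tercile, where 2.77% and 2.09% of the genes tested were called higher. For TWIST2 the same differences were 0.95 (SE 0.312, adjusted p = 0.0895) and 0.22 (SE 0.166, adjusted p = 0.489), so its call was lost in both. A tercile is cut within its plate, and its markers differed between the experiments too: CDH1 in the lower tercile was 1.47 and 1.33 transcripts per 10000 at low and 0.997 and 0.976 at high resolution.

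The second comparison asked how each factor stands to the epithelial and mesenchymal markers, with the plate as block and the upper tercile set against the lower. SNAI2, TWIST1 and TWIST2, which passed the filter on low counts in both terciles of each plate, rose towards the mesenchymal end, where 19.0% of the 10587 genes tested were called higher and 17.2% lower. SNAI2 rose by 2.23 (SE 0.116, adjusted p = 2.13e-08), from 0.271 to 0.958 transcripts per 10000 over the lower terciles to 1.55 to 3.64 over the upper, and the middle tercile lay between them in all 4 plates. TWIST2 rose by 1.69 (SE 0.186, adjusted p = 1.39e-05), from 0.0581, 0.121, 0.151 and 0.186 to 0.399, 0.390, 0.478 and 0.432. In the edgeR fit over all 4 plates TWIST1 rose least, by 1.21 (SE 0.112, adjusted p = 2.93e-06), from 0.382, 0.254, 0.133 and 0.201 to 0.849, 0.541, 0.383 and 0.480. In high resolution replicate 2 alone, TWIST2 rose slightly less (UMI ratio 2.28) than TWIST1 (2.35). The middle tercile of TWIST1 exceeded the upper in high resolution replicate 2 (0.517), and that of TWIST2 was under the lower in low resolution replicate 2 (0.0754). For each of the 3 genes no lower tercile reached the upper tercile of its own plate.

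The ZEB genes had the widest gap over all plates, though in low resolution replicate 2 the ratio of SNAI2 (6.34) was as high as that of ZEB2 (6.26). ZEB1 had 3 UMIs in the lower tercile of each plate and 54, 45, 56 and 57 in the upper. Over all plates this is 12 against 212 UMIs, or 20.1 times as many per UMI sequenced (95% counting interval 11.3 to 39.6). ZEB2 had 8, 9, 6 and 4 UMIs in the lower and 73, 50, 54 and 53 in the upper terciles, a ratio of 9.70 (6.50 to 15.04). In edgeR the changes were 4.27 (SE 0.274, adjusted p = 1.20e-07) for ZEB1 and 3.26 (SE 0.247, adjusted p = 5.17e-07) for ZEB2. Both genes passed the filter on low counts through the upper tercile alone, so they could be tested only because they were high there, and their calls count no further than that. In high resolution replicate 2 the middle tercile of ZEB2 (0.115 transcripts per 10000) had nearly reached the upper (0.122), while in low resolution replicate 2 the middle tercile of both ZEB genes stayed at the level of the lower.

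SNAI1 went the other way on few UMIs. It had 4, 18, 10 and 19 UMIs in the lower and 0, 11, 2 and 11 in the upper tercile, lower in the upper tercile in 4 of 4 plates. Over all plates this is 51 against 24 UMIs, a ratio of 0.536 (counting interval 0.315 to 0.887). It did not pass the filter, and without the filter its change was -0.98 (SE 0.413, adjusted p = 0.0685), short of the threshold.

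Upper terciles had fewer UMIs per cell than lower ones in all 4 plates (medians of 26556 against 31962, 28257.5 against 32463, 32830 against 37422 and 38675 against 39313) and a lower mitochondrial share (26.3% to 29.9% against 29.8% to 31.7%), and the part of these differences in the result was not tested. At 10000 UMIs per cell the share of cells with SNAI2 went from between 24.7% and 46.4% in the lower to between 62.1% and 89.7% in the upper terciles, that with TWIST2 from between 8.42% and 14.4% to between 25.8% and 42.6%, and that with TWIST1 from between 11.3% and 30.5% to between 31.9% and 48.4%. ZEB1 went from at most 2.25% to between 11.6% and 18.6%, and ZEB2 from at most 3.19% to between 9.28% and 27.4%.

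**Figure D3:**
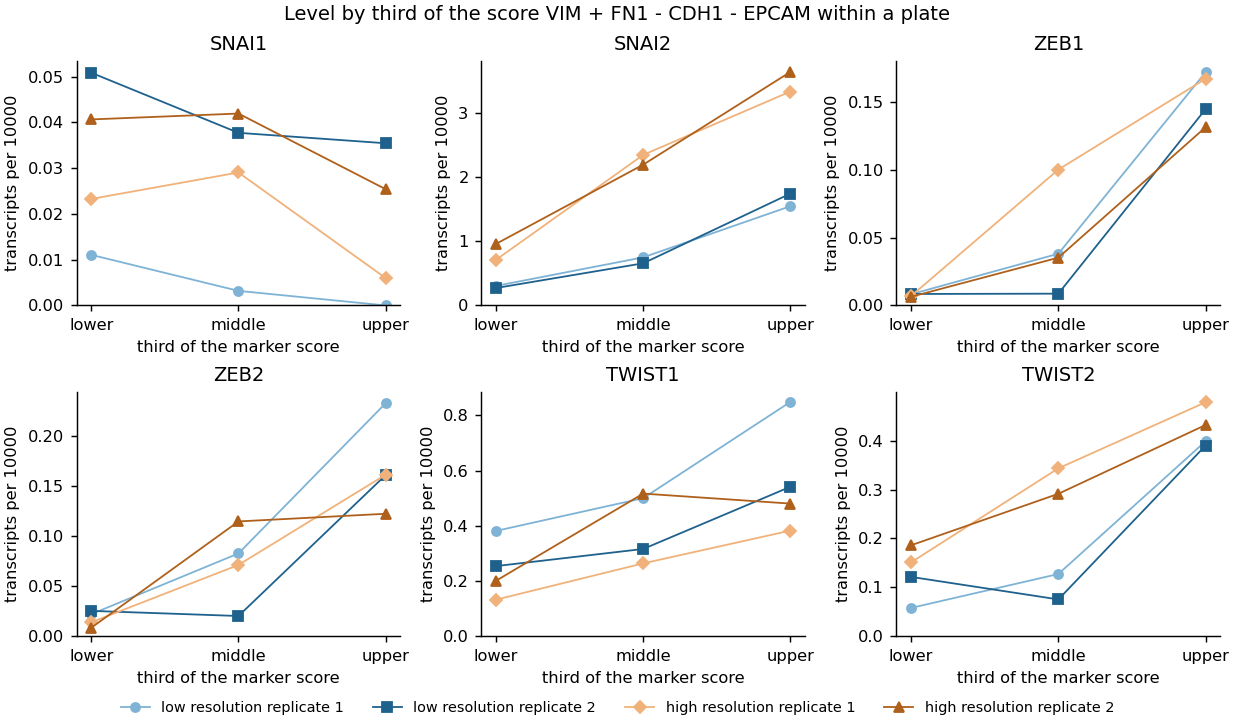
Level of each factor (transcripts per 10000) in the lower, middle and upper tercile of the marker score, with 1 line per plate and a separate vertical scale for each gene, starting at 0. SNAI2, ZEB1, ZEB2, TWIST1 and TWIST2 end higher than they start in all 4 plates, with ZEB1 going from 3 UMIs per lower tercile to between 45 and 57 per upper tercile, and SNAI1 ends lower than it starts.

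Taken marker by marker, SNAI2, TWIST1 and TWIST2 fell where CDH1 or EPCAM was high and rose where FN1 was high. Between CDH1 terciles, SNAI2 fell by 1.69, TWIST2 by 1.39 and TWIST1 by 1.09, and 13.9% of all genes tested were called lower. Between EPCAM terciles they fell by 1.84, 1.55 and 1.33, with 17.2% of genes called lower. Between FN1 terciles they rose by 2.08, 1.68 and 1.20, with 19.4% of genes called higher. The highest of these 9 adjusted p-values was 5.74e-05, in edgeR. The terciles of different markers hold many of the same cells, so these are not separate tests. ZEB1 and ZEB2 again passed the filter through 1 tercile alone in all 3, with fitted values of -3.55 and -2.79 for CDH1, -3.95 and -3.15 for EPCAM and 3.89 and 2.90 for FN1. CDH1 had no UMI in 93 to 152 cells of a plate and EPCAM in 79 to 120, so their lower terciles of 90 to 97 cells consist of cells at 0, except for EPCAM in low resolution replicate 2. The upper CDH1 and EPCAM terciles were deeper than the lower in each plate and the upper FN1 tercile was shallower, and the part of depth in these changes was not tested beyond the thinning.

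In the edgeR fits over all 4 plates, changes between VIM terciles were smaller than those of the other markers for all 5 factors. For SNAI2 this did not hold in each plate. In high resolution replicate 2 its UMI ratio was 3.40 between VIM terciles and 2.88 between FN1 terciles. VIM had no UMI in 194, 183, 122 and 126 cells of the 4 plates, so its lower tercile too is made of cells at 0, taken in well order. SNAI2 rose by 1.53 (adjusted p = 1.99e-05), ZEB1 by 2.45 (adjusted p = 0.000414), ZEB2 by 1.45 (adjusted p = 0.000821) and TWIST2 by 0.95 (adjusted p = 0.000346) in the VIM comparison by edgeR, in which 12.5% of genes were called higher. ZEB1 reached the filter in 1 of 4 lower and in 4 of 4 upper VIM terciles, so it too could be tested because it was high in the upper, and its call counts no further than that. TWIST1 rose by 0.36 (SE 0.108, adjusted p = 0.0393). Its call was lost at equal depth (0.26, adjusted p = 0.315), in DESeq2 (adjusted p = 0.175), with no plate block (adjusted p = 0.407) and without low resolution replicate 1 (adjusted p = 0.0852), low resolution replicate 2 (adjusted p = 0.139) or high resolution replicate 1 (adjusted p = 0.104), and that of TWIST2 was lost at equal depth (0.54, adjusted p = 0.122). Cells in the upper VIM tercile were deeper in each plate (medians of 31628 against 25690 UMIs in low resolution replicate 1, for instance), and the part of depth was not tested beyond the thinning.

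SNAI1 was called for no marker with the filter and for EPCAM alone without it. It passed the filter for FN1 alone, where it differed by -0.45 (SE 0.350, adjusted p = 0.348). Without the filter it was 1.38 higher where EPCAM was high (SE 0.438, adjusted p = 0.00974), on 54 against 18 UMIs over the 4 plates (ratio 2.46, counting interval 1.42 to 4.45), a direction opposite to that of the other 5 factors. Its differences for CDH1 (0.42, adjusted p = 0.682) and VIM (-0.61, adjusted p = 0.496) were not called without the filter.

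Across the single cells of a plate, rank correlations with the markers differed in size between the factors. Spearman's rho of log-normalized values is given here as a mean over the 4 plates (± SD, n = 4) and describes these cells, which share a library and differ in depth. SNAI2 had a rho of -0.42 ± 0.04 with CDH1, -0.46 ± 0.05 with EPCAM, 0.44 ± 0.09 with VIM and 0.49 ± 0.02 with FN1. TWIST2 had -0.27 ± 0.02, -0.30 ± 0.04, 0.27 ± 0.02 and 0.32 ± 0.01 with the same markers, and TWIST1 -0.22 ± 0.05, -0.28 ± 0.04, 0.13 ± 0.03 and 0.26 ± 0.03. ZEB1 ranged from -0.31 ± 0.05 with EPCAM to 0.35 ± 0.04 with FN1, and ZEB2 from -0.33 ± 0.04 with EPCAM to 0.30 ± 0.08 with FN1. Each of these 20 relations had the same sign in all 4 plates. SNAI1 lay between -0.04 and 0.10 with the 4 markers. At equal depth all values shrank, SNAI2 to -0.24 with CDH1, -0.31 with EPCAM, 0.35 with VIM and 0.39 with FN1, and ZEB1 to -0.13, -0.16, 0.21 and 0.19, so that in single cells VIM was not the weakest marker for these 2 genes.

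**Figure D4:**
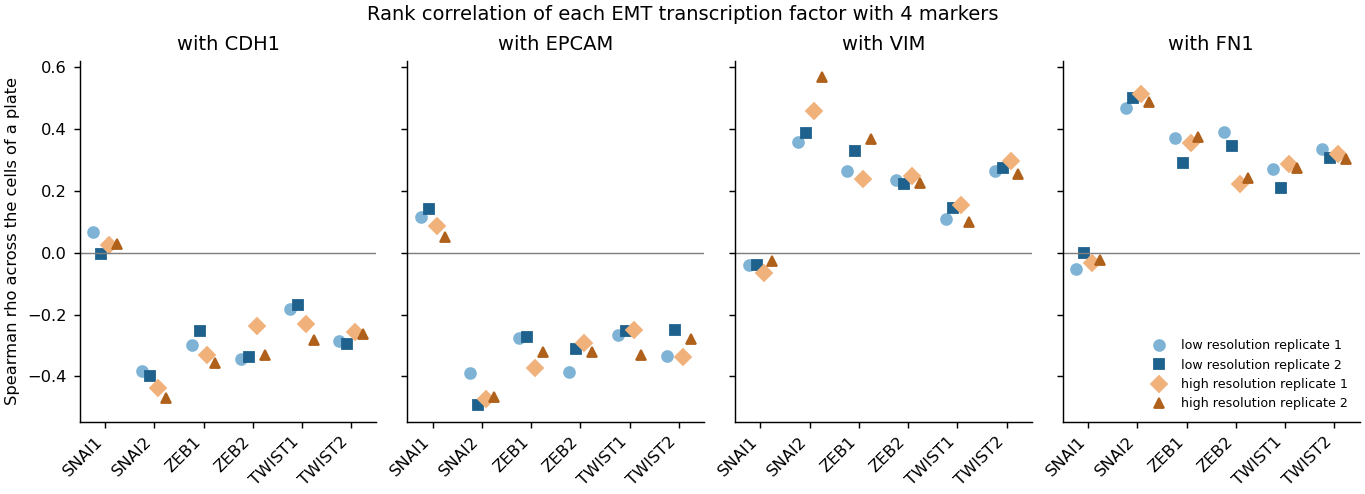
Spearman's rho of each factor with CDH1, EPCAM, VIM and FN1 across the kept cells of a plate, 1 point per plate, at full depth. SNAI2 lies farthest from 0 (mean -0.42 with CDH1 and 0.49 with FN1), ZEB1, ZEB2, TWIST1 and TWIST2 lie on the same side of 0 as SNAI2 for each marker, and SNAI1 lies near 0.

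Few cells carried the whole set. At least 1 factor had a UMI in 88.0%, 90.4%, 97.3% and 96.2% of the cells of the 4 plates (low resolution replicates 1 and 2, then high resolution replicates 1 and 2), and at least 2 in 63.6%, 64.2%, 75.3% and 85.3%. All 6 were found together in 0, 0, 2 and 2 cells. At 10000 UMIs at least 1 factor remained in 67.6%, 64.6%, 81.3% and 81.8% of cells, and at least 2 in 34.8%, 29.9%, 43.7% and 44.0%.

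Of the 15 pairs, ZEB1 with ZEB2 had the highest mean over plates of the cells with both genes relative to the product of the 2 shares, though in high resolution replicate 1 other pairs were above it. Both were seen in 19, 9, 16 and 21 cells, which is 1.73, 1.85, 1.19 and 1.55 times that product. A ZEB1 UMI was found in 19.7%, 14.4%, 24.4% and 21.5% of the cells with SNAI2 and in 7.77%, 5.15%, 4.88% and 2.703% of those without. The ratio for this pair was 1.27, 1.30, 1.13 and 1.12, and it cannot go far above 1 where SNAI2 is in most cells. ZEB1 with TWIST2 was at 1.26 to 1.62. TWIST1 with TWIST2 was at 0.97 to 1.14, a ratio that is also limited because TWIST1 is in most cells. TWIST2 was found in 40.0%, 38.0%, 62.1% and 63.5% of the cells with TWIST1 and in 27.7%, 40.7%, 45.4% and 56.25% of those without. SNAI1 with SNAI2, a ratio limited in the same way, was at 1.08 to 1.18 on 3, 19, 13 and 32 cells. The other pairs with SNAI1 ranged from 0.00 to 1.72, on 0 to 23 cells, and cannot be read. At 10000 UMIs ZEB1 and ZEB2 were seen together in 5, 3, 3 and 4 cells, too few to read their ratio of 1.29 to 2.98. At 5000 UMIs, with fewer such cells left, it was 0.00 to 1.30. The ratio of SNAI2 with ZEB1 at 10000 UMIs was 1.36 to 2.06, and that of ZEB1 with TWIST2 was 0.77 to 1.02, on 2 to 8 cells.

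**Figure D5:**
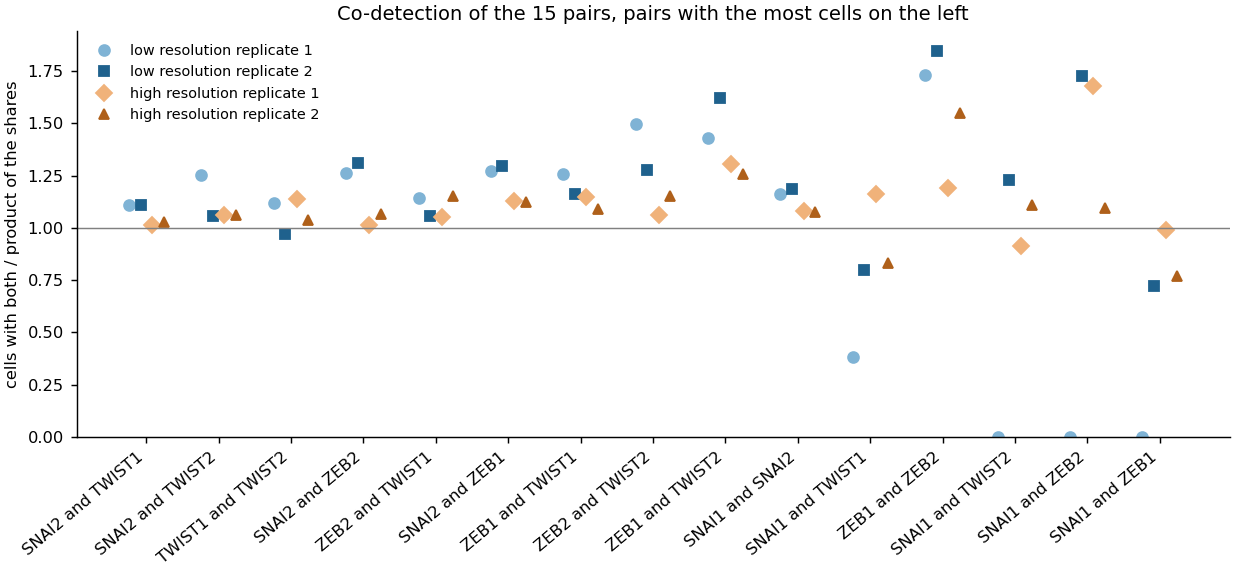
Number of cells with a UMI of both genes of a pair, divided by the number that the product of the 2 shares gives, for 15 pairs and 4 plates at full depth; the line at 1 marks equality. Pairs with more cells stand on the left. ZEB1 with ZEB2 ranges from 1.19 to 1.85, and 4 of the 5 pairs with SNAI1 scatter widely, on few cells.

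For the 3 factors found in at least 20% of the cells of each plate, the genes most like them were ranked by mean rho among 8029 genes. Among the genes closest to SNAI2 were NT5E (0.55 ± 0.09), the surface ecto-nucleotidase CD73, and ANXA5 (0.54 ± 0.10), a membrane-binding annexin, and farthest from it were FXYD3 (-0.53 ± 0.04), CLDN7 (-0.51 ± 0.04) and AP1M2 (-0.50 ± 0.03), which are a sodium pump regulator, a tight junction claudin and an epithelial sorting adaptor. TWIST2 stood closest to HTRA1 (0.36 ± 0.02), EMP3 (0.36 ± 0.02) and TIMP1 (0.34 ± 0.04) and farthest from FXYD3 (-0.34 ± 0.01), CLDN7 (-0.34 ± 0.04) and KRT15 (-0.34 ± 0.03). TWIST1 stood closest to SOD2 (0.31 ± 0.03), the mitochondrial superoxide dismutase, FBLN1 (0.31 ± 0.03), a matrix fibulin, and SDCBP (0.29 ± 0.05), and farthest from MAL2 (-0.29 ± 0.04), KRT7 (-0.28 ± 0.04) and EPCAM. Part of the order was shared: for SNAI2, TWIST2 and TWIST1, FN1 ranked 12, 10 and 8, and EPCAM 8013, 8016 and 8027. These ranks hold at full depth. At 10000 UMIs, HTRA1, EMP3 and TIMP1 ranked 8, 4 and 5 for TWIST2 (rho 0.21, 0.23 and 0.22), with FN1 first (0.25), while NT5E ranked 2 for SNAI2 (0.42) and FBLN1 and SOD2 ranked 1 and 2 for TWIST1 (0.26 for both). The middle 90% of the 8029 genes at full depth lay between -0.17 and 0.22 for SNAI2, between -0.11 and 0.14 for TWIST2 and between -0.09 and 0.11 for TWIST1.

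The tested genes that work against these factors fell between the terciles in which SNAI2, TWIST1 and TWIST2 rose. A gene of these lists could also pass the filter through the tercile where it was high, and this was not checked for each listed gene. The lists were also chosen with earlier results of these data known. The counts and p-values below therefore describe the genes tested and are not independent of these data. Between these terciles 19.0% of all genes were called higher and 17.2% lower. Of 12 listed epithelial regulators that oppose EMT, 10 were tested between the terciles of the 4 markers and all 10 fell by edgeR, with a median of -3.51. They included OVOL1 (-4.53, SE 0.331, adjusted p = 3.59e-07), a zinc-finger repressor known to hold down ZEB1, and the splicing factor ESRP1 (-4.18, SE 0.188, adjusted p = 5.42e-09). Of 11 repressed targets tested, 10 fell, led by OCLN (-4.26), the tight junction protein occludin, and the polarity gene CRB3 (-4.08), and PKP2, a desmosomal plakophilin, rose by 0.70 (adjusted p = 0.00329). MUC1 and PATJ, whose sequences are shown above, fell by 0.44 (adjusted p = 0.00376) and 1.72 (adjusted p = 1.08e-06). Of 5 mesenchymal targets tested, 4 rose, among them the matrix protease MMP2 (3.95) and the fibronectin receptor subunit ITGA5 (2.83), and COL1A1 was at 0.02 (adjusted p = 0.956).

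Other EMT-linked factors did not move as 1 group, and the shares called among the cofactors were near those of all genes (19.0% higher and 17.2% lower). Of 7 tested, HMGA2 (2.06), an architectural chromatin protein, ETS1 (1.99) and SOX4 (1.34) rose, and FOXQ1 (-1.23), KLF8 (-1.01) and SOX9 (-0.74) fell. Of 16 cofactors and partners, 3 rose and 3 fell by edgeR, with a median of 0.01. The E proteins TCF4 (0.96, adjusted p = 0.0181) and TCF12 (0.61, adjusted p = 0.0109), which pair with TWIST proteins, and AJUBA (0.65, adjusted p = 0.0111), a partner of Snail proteins, rose, while the E protein TCF3 was at 0.11 (adjusted p = 0.547). ID2 (-0.72, adjusted p = 0.00471), which holds E proteins off DNA, ID1 (-0.26, adjusted p = 0.0359) and the corepressor CTBP2 (-0.68, adjusted p = 3.99e-05) fell, and ID3 was at 0.18 (adjusted p = 0.125). The 7 tested genes for the breakdown of these proteins, such as the kinase GSK3B (0.03) and the ubiquitin ligase subunit BTRC (0.40), were not called, and the lowest adjusted p among them was that of SKP1 (0.19, adjusted p = 0.0563).

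One difference between the experiments passed the test of the difference itself. The change of SNAI2 between FN1 terciles was smaller at high resolution, by -0.82 (SE 0.172, interaction term in edgeR with plate as block, adjusted p = 0.0455), and 0.918% of 10562 genes were called in either direction. SNAI2 went from 0.285 and 0.268 to 1.62 and 1.70 transcripts per 10000 at low resolution and from 0.809 and 1.14 to 3.12 and 3.33 at high resolution, so that the groups did not overlap in either tercile. FN1 was at 0 in 76 and 85 cells of the low and in 26 and 30 of the high resolution plates, so the lower FN1 terciles of the 2 experiments are not alike, and the part of this was not tested. For the combined score the difference was -0.46 (SE 0.173, adjusted p = 0.270), and the other interaction terms of the 6 factors, over the 4 single markers and the score, had adjusted p-values of 0.107 or more. The falls of SNAI2 between CDH1 and EPCAM terciles were also smaller at high resolution, by 0.56 and 0.34 (adjusted p = 0.107 and 0.657). Its rise between VIM terciles was larger there, by 0.30 (SE 0.132, adjusted p = 0.531).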

How the data were processed

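Single cells were sequenced by SORT-seq, which adds a well barcode and a UMI to each poly(A) transcript, on 4 plates (2 per experiment). The deposited values were expected counts: the authors converted the UMIs k of a gene in a well to transcripts as ln(1 - k/4096)/ln(1 - 1/4096), and whole UMIs were recovered from them for shares, thinning and UMI ratios, while levels, correlations and tests used the deposited counts. The submitters' processing notes list STAR 2.7.3a, Seurat 4 and hg38; whether counting used strand is not given in the sources used here. Spike-in rows were left out. Following the limits given by the study, a well was used if it had 2000 to 9000 features and a mitochondrial share under 40%; doublets were not called beyond the upper limit. The study states more analysed cells than these limits left here, and the difference was not resolved.

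Deposited counts were summed per plate, or per plate and tercile, rounded and tested with edgeR 4.0.16 (quasi-likelihood test, filterByExpr, TMM, Benjamini-Hochberg, threshold 0.05; R 4.3.3); terciles had the plate as block and the markers used for the split left out. DESeq2 1.42.0 was an alternative, beside thinning, other cell and gene filters, other splits and leaving out each plate. On simulated data for the high against low resolution comparison (12437 genes) 68% of 2-fold and 96% of 4-fold changes were recovered, and for the terciles of 4 markers (10587 genes) 89% and 100%. Each simulation also gave 10 false calls. The dispersion (variation beyond counting) was set to 0.02 for each gene, and the 200 changed genes were drawn at random from those tested. The rates therefore do not give the recovery of a gene as rare as SNAI1 or the ZEB genes. Correlations used Python 3.11.15 with scipy 1.17.1. The genes named are the 6 factors, the 4 markers, the 3 nearest and 3 farthest genes by rho, and the 2 list members with the largest change in each direction, with others of a list added after their values were seen. A gene named by this rule is not reported here. The factors and gene lists were chosen with earlier results of these data known. Intervals of shares are exact (Clopper-Pearson) at 95%, those of UMI ratios are exact and conditional on the total, and both cover counting error only.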

Additional observations from a re-analysis of the deposited data

Results flagged for a closer look

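The change of SNAI2 between FN1 terciles differed between the 2 experiments by -0.82 on the log2 scale (high minus low resolution, adjusted p = 0.0455 in the interaction test of edgeR), the only interaction term of the 6 factors that was called. In transcripts per 10000, SNAI2 was 5.69 and 6.36 times higher in the upper than in the lower tercile of the low resolution plates and 3.85 and 2.93 times higher in the high resolution plates. UMIs of the factors were also present in 222 wells with under 2000 features, which entered no test: 46 of SNAI2 in 34 wells, 17 of TWIST2 in 15 wells, 15 of TWIST1, 7 of ZEB2 and 4 of ZEB1. SNAI1 had 0 there. Per 10000 UMIs, these wells were below the kept cells in all 4 plates for SNAI2, ZEB2 and TWIST1 and in 3 of 4 for ZEB1 and TWIST2. For ZEB2 in high resolution replicate 2 this rests on 1 UMI (0.0841 against 0.0851). SNAI1 is too rare for its 0 to be read as lower. There was no control well to set these counts against.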

How the results depend on the processing

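Among alternative values for the called changes of factors that reached the filter in both groups of cells, 206 kept their direction and their call and 9 lost the call, 6 for TWIST1 and 3 for TWIST2. Between the experiments, 1547 genes were called, against 1016 at 10000 UMIs per cell and 982 to 1172 with 1 plate left out. Within the lower and the upper marker tercile, comparisons added after seeing the data, 617 and 485 genes were called. The replicate numbers do not pair the plates (correlation of deviations -0.02 over 4062 genes), and with the replicate number as block 2023 genes were called, TWIST1 among them (-0.49, adjusted p = 0.0368). Uncalled changes turned direction: SNAI1 ranged from -0.54 to 2.55, ZEB1 from -0.061 to 0.55 and ZEB2 from -0.38 to 0.26 with 1 plate left out, and ZEB1 was at -0.075 in the upper tercile; the cause was not tested. At 10000 UMIs the terciles gave 2159 calls for the 4 markers (3838 at full depth), 1145 for CDH1 (3075), 1542 for EPCAM (3560), 878 for VIM (2655) and 2156 for FN1 (3849). Without the plate block CDH1 gave 1881, VIM 945 and FN1 2540 calls, and DESeq2 gave 2044 for CDH1, 2262 for EPCAM, 1585 for VIM and 2506 for FN1. For VIM, leaving out 1 plate gave 1645 to 2239 calls. Depth set the shares of cells with a UMI. Their means over plates at full depth, 10000 and 5000 UMIs were 6.75%, 1.68% and 1.32% for SNAI1, 75.5%, 54.9% and 38.7% for SNAI2, and 16.8%, 7.41% and 4.24% for ZEB1. They were 21.5%, 8.55% and 4.26% for ZEB2, 62.0%, 30.3% and 17.6% for TWIST1, 47.6%, 21.3% and 11.2% for TWIST2, and 72.1%, 38.1% and 16.9% for 2 or more factors.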
